A study of Mus musculus with 6 samples.

Results

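The genes described here are 34 macrophage genes measured in inguinal white adipose tissue, the subcutaneous fat of the groin, of mice with and without the transcription factor Atf7. They were taken from a written list of 35 names, of which Emr1 is the older name of Adgre1. Of the 34 genes, 33 had a probe set on the array with their symbol alone, out of 19937 genes measured in all, and Spp1 was not analysed here. The rule takes the brightest probe set of a gene, and each of the 33 had only 1 to choose from. Compared were 3 wild-type littermates (WT) and 3 Atf7 knockouts (KO), all males bred from Atf7 heterozygotes on the C57BL/6 background and aged 5 weeks, with 1 array per mouse. No treatment is given in the labels for either group. The labels do not state which part of Atf7 the allele removes or that the loss is limited to a cell type.

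Macrophages are phagocytes that live in every tissue. In adipose tissue, resident macrophages carry scavenger and mannose receptors and make complement C1q, and in obesity lipid-associated macrophages gather around dying fat cells and switch on lipid handling and lysosomal genes. The cytokines interleukin 4 and interleukin 13 induce what is called alternative activation, with genes such as Retnla, Chil3 and Arg1. The inguinal fat pad also holds a lymph node, which has macrophages of its own in its sinuses.

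The whole series is summarised first, because it bears on every value below. The Atf7 probe set 10433032 lay between 8.95 and 9.20 in the WT arrays and between 6.22 and 6.53 in the KO arrays on the log2 scale, while the other Atf7 probe set, 10433034, lay between 9.10 and 9.52 in all 6. Adipocyte markers were present in every array, with Adipoq, the adiponectin gene, singled out as the defining marker and not by its p, between 12.24 and 12.68. T cell and B cell markers swung strongly between arrays. Their joint level, called the lymphocyte score, is the mean of 33 genes after each was centred on its own mean. It was 0.68, 0.53 and 0.76 in WT replicates 1, 2 and 3, and -0.10, 0.64 and -2.50 in KO replicates 1, 2 and 3. KO replicate 3 was thus far below the other 5 arrays in lymphocyte markers. In bulk tissue, fewer cells of a type and less RNA per cell cannot be told apart.

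No macrophage gene passed the test of KO against WT, and the list had no common direction. Of the 33, 22 were higher and 11 lower in KO by their means, with a median log2 difference of 0.05, where the median over all genes was 0.01. By limma with Benjamini-Hochberg adjustment over all genes, 0 of the 33 passed an adjusted p of 0.05, as did 0 of all genes (0%). Atf7 was tested there by probe set 10433034 only. The smallest adjusted p among the macrophage genes was 0.574. At an unadjusted p under 0.05, 3 were higher, namely Clec4b1, Retnla and Cd14, against 4.99% of all genes, and 0 were lower, against 2.48% (7.47% of all genes in both directions together). The KO arrays all lay above the WT arrays for 2 genes, Clec4b1 and Cd14, where 7.96% of all genes did so, and all below for 1, Aif1, where 5.97% did. Leaving out WT replicate 1, WT replicate 2, KO replicate 1 or KO replicate 3 reduced the 3 higher genes to 1, Clec4b1. Without KO replicate 2 they became 7, and 4 genes were then lower, namely Mpeg1, Ctss, Timd4 and Marco. The share of all genes under that p was not counted with an array left out. These counts therefore cannot be set against 4.99% and 2.48%, which hold for all 6 arrays.

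**Figure D1:**
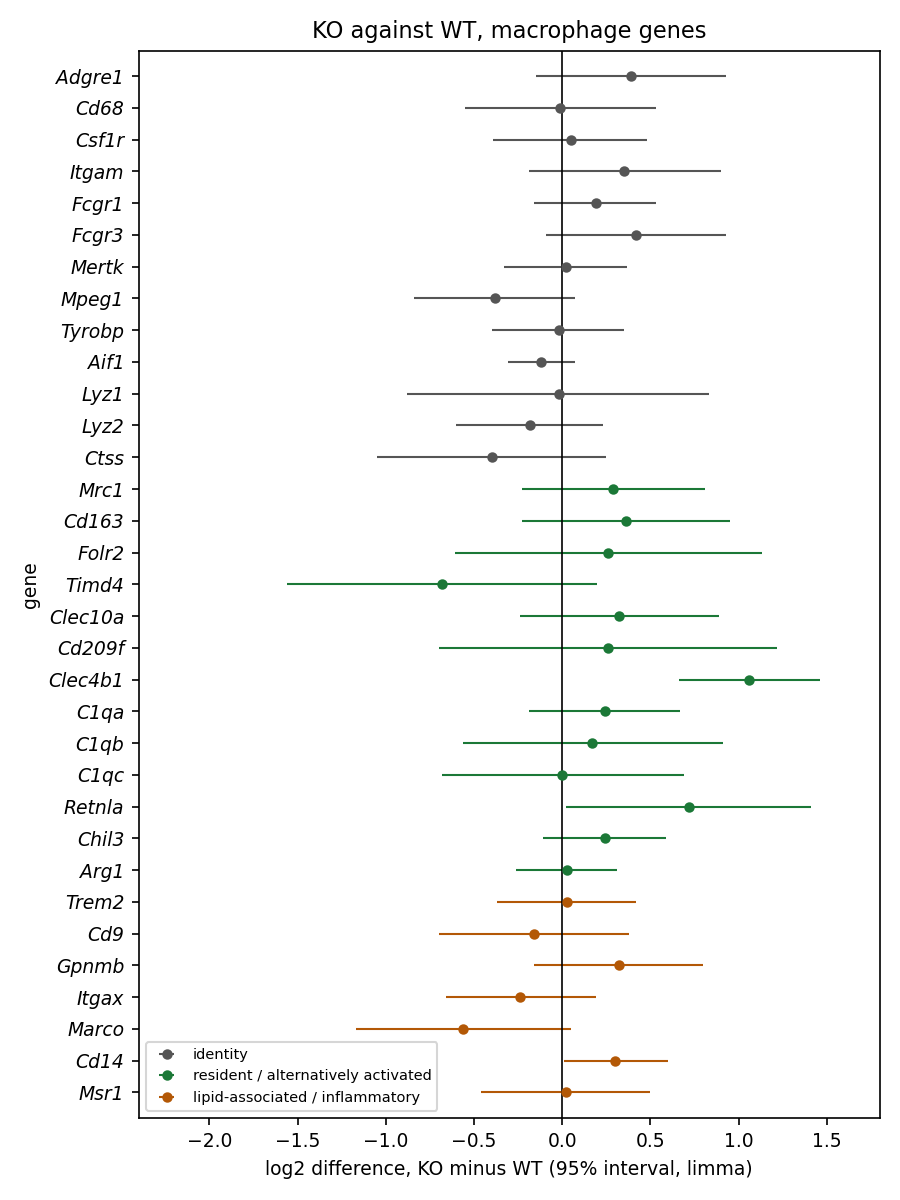
Log2 difference of KO minus WT (horizontal axis, points) with limma's 95% interval (bars) for the 33 macrophage genes (vertical axis), 3 arrays per group, coloured by role. The intervals of Clec4b1 (0.66 to 1.46), Retnla (0.02 to 1.41) and Cd14 (0.01 to 0.60) lie above 0 before adjustment for multiple tests, and those of the other 30 genes include it.

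Genes of macrophage identity form the first role group. Adgre1 encodes F4/80, the standard surface marker of mouse macrophages. It was 8.25, 8.01 and 8.58 in WT replicates 1 to 3 and 9.05, 8.23 and 8.72 in KO replicates 1 to 3, in log2 values, as are all levels below, given in the order of the replicate numbers. KO replicate 2 lay among the WT arrays while KO replicates 1 and 3 lay above all of them, and the mean difference was 0.39 (SE 0.23, limma adjusted p 0.632). Cd68, a lysosomal glycoprotein of phagocytes, was 9.39, 9.21 and 10.04 in WT and 9.79, 9.30 and 9.50 in KO, a difference of -0.01 (95% interval -0.55 to 0.53). Its highest and its lowest array were both WT. Csf1r, the receptor for the growth factor on which macrophages depend, was 9.50, 9.29 and 9.83 in WT and 9.91, 9.44 and 9.42 in KO, and its difference of 0.05 had an interval from -0.39 to 0.48. The interval of Adgre1 ran from -0.15 to 0.93, so 3 arrays per group did not set its difference apart from 0 and do not exclude a larger one.

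None of the other identity genes passed either. The Fc receptor genes Fcgr3 and Fcgr1, which bind antibody-coated targets, differed by 0.42 and 0.19, and Itgam, the integrin chain CD11b, by 0.35, with overlapping groups for all 3. Mertk, which takes up dying cells, and Tyrobp, the signalling adaptor DAP12, differed by 0.02 and -0.02. Aif1, which encodes the actin-binding protein IBA1, was 6.22, 6.24 and 6.24 in WT and 6.12, 6.15 and 6.07 in KO, so that the groups did not overlap, but its difference was -0.12 with an adjusted p of 0.664. Lyz1 and Lyz2 encode lysozymes that are near-identical copies, so their probes may read each other's RNA. Lyz1 ranged from 9.59 to 11.22 within WT and from 10.32 to 10.35 within KO, with a difference of -0.02. Lyz2 ranged from 11.76 to 12.38 in WT and from 11.65 to 12.00 in KO, with a difference of -0.18.

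Genes of resident and alternatively activated macrophages were mostly higher in KO by their means, and none passed the test. Of 13 genes, 12 were higher and 1, Timd4, lower, where 10575 of all 19937 genes were higher. The 12 include C1qc, whose difference was 0.00 and turned negative in several alternatives. C1qb, Cd209f and Arg1 also turned negative in some alternatives, and the genes share their cells. The median of the 13 was 0.26, where the medians were -0.01 for the 13 identity genes and 0.02 for the 7 lipid-associated and inflammatory genes. The resident median was 0.12 when KO replicate 1 was left out and 0.11 when WT replicate 2 was. It was 0.47 when KO replicate 2 was left out and 0.44 when WT replicate 3 was. It stayed positive with any 1 array left out, and the identity and lipid-associated medians did not keep their sign.

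Clec4b1, a C-type lectin receptor of myeloid cells, had the largest difference of all 33 genes. It was 3.70, 3.78 and 4.17 in WT and 4.96, 4.70 and 5.19 in KO. The genotypes did not overlap, and the lowest KO array was 0.53 above the highest WT array. The means were 3.88 ± 0.25 in WT and 4.95 ± 0.24 in KO (SD, n = 3), a difference of 1.06 (SE 0.17) in signal, with a limma adjusted p of 0.574. The gene is dim, far below the array medians of 6.83 to 6.90 over genes. Its WT values also lay below the 4.58 of the B cell gene Ms4a1 in KO replicate 3, the array poorest in lymphocyte markers, a gene singled out for that low value. The table has no detection call, so the WT signal was not shown to be above background, and no fold is given. Its difference lay between 0.94 and 1.21 without each array in turn, and was 0.89 when the lymphocyte score entered the fit.

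Retnla encodes RELM alpha, a secreted protein induced by interleukin 4. It was 9.66, 10.21 and 10.71 in WT and 10.86, 10.54 and 11.32 in KO. WT replicate 3 lay above KO replicate 2, and otherwise the KO arrays were higher. The difference was 0.72 (SE 0.29), or 1.64-fold, with an adjusted p of 0.622 by limma. It was 0.45 without WT replicate 1 and 0.42 when the lymphocyte score entered the fit. The other classical genes of alternative activation differed less. Chil3, a chitinase-like protein, differed by 0.24 and Arg1, arginase 1, by 0.03 (95% interval -0.26 to 0.31), both with overlapping groups. Both genes are dim, with means over all arrays of 4.72 and 5.32, below the array medians of 6.83 to 6.90 over genes. Their signal was not shown to be above background, so their small differences may not reflect their RNA.

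**Figure D2:**
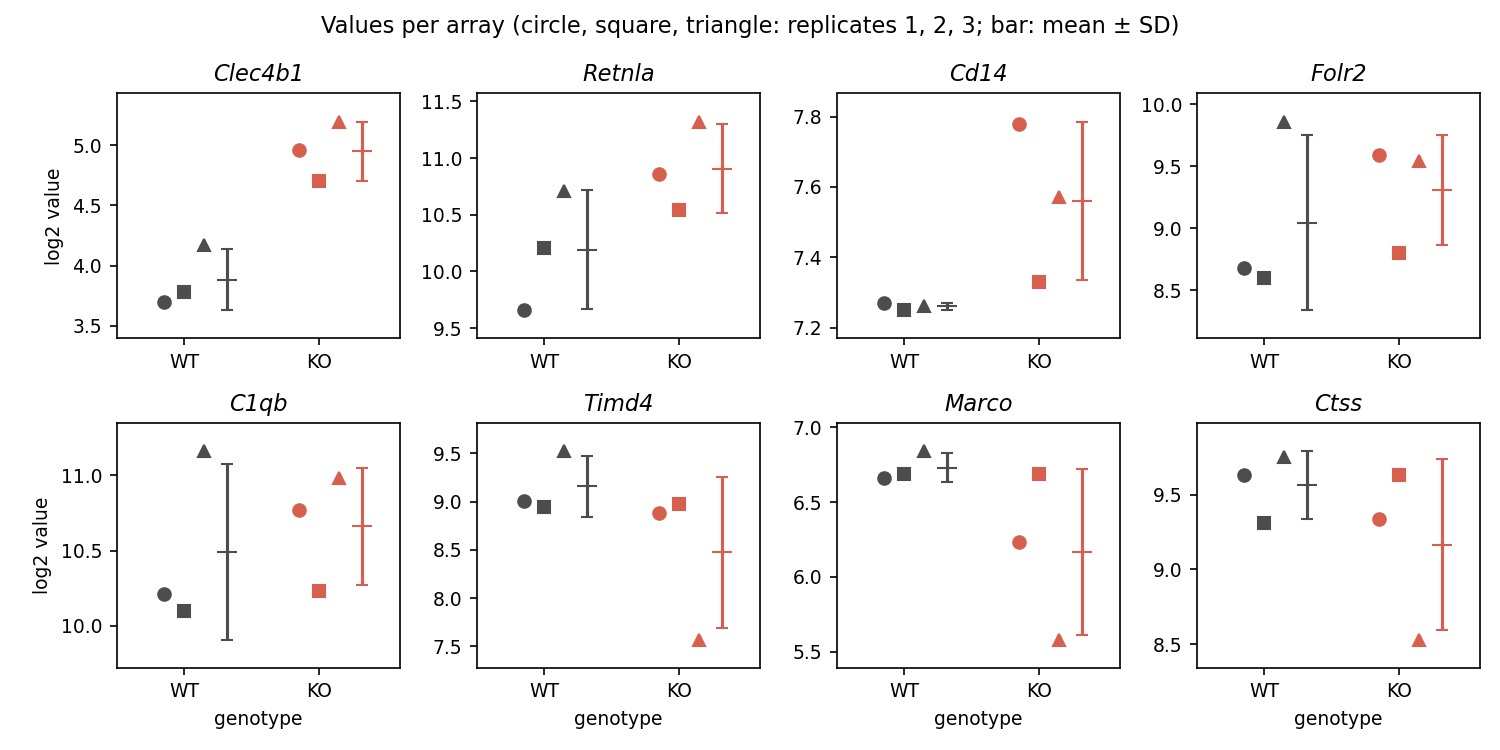
Log2 values (vertical axes, which differ between panels) of 8 macrophage genes in each array by genotype (circle, square and triangle are replicates 1, 2 and 3), with the mean and SD of each group. Clec4b1 and Cd14 separate the genotypes, Folr2 and C1qb are high in WT replicate 3 and KO replicates 1 and 3, and Timd4, Marco and Ctss are lowest in KO replicate 3.

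Folr2, Cd209f, Mrc1, Cd163 and Clec10a, receptor genes of resident macrophages, had ranges within each genotype larger than the difference between the genotypes. Folr2, the folate receptor beta, was 8.68, 8.60 and 9.86 in WT and 9.59, 8.80 and 9.54 in KO. WT replicate 3 was the highest array, and KO replicate 2 lay close to WT replicates 1 and 2. The difference of 0.26 moved to 0.67 when WT replicate 3 was left out, to 0.04 when WT replicate 2 was, and to 0.07 when the lymphocyte score entered the fit. Cd209f, a lectin of the DC-SIGN family, was likewise highest in WT replicate 3, at 8.95, 8.60 and 10.13 in WT and 9.72, 8.97 and 9.77 in KO, with a difference of 0.26 that moved to 0.71 when WT replicate 3 was left out and to -0.05 when WT replicate 2 was. Mrc1, the mannose receptor CD206, was 9.07, 8.84 and 9.35 in WT and 9.82, 9.02 and 9.29 in KO. Cd163, the scavenger receptor for haemoglobin-haptoglobin, was 7.85, 7.67 and 8.12 in WT and 8.68, 7.70 and 8.34 in KO. In both genes KO replicate 1 was the highest array, and their differences, 0.29 (SE 0.22) and 0.36 (SE 0.25), had limma adjusted p-values of 0.696 and 0.669. Without KO replicate 1 the differences were 0.07 for Mrc1 and 0.14 for Cd163, and without KO replicate 2 they were 0.47 and 0.63. Clec10a, a galactose-binding lectin, differed by 0.32, and by 0.11 without WT replicate 2 and 0.13 without KO replicate 1.

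C1qa, C1qb and C1qc encode the 3 chains of complement C1q. C1qb was 10.21, 10.10 and 11.16 in WT and 10.77, 10.23 and 10.98 in KO, and C1qc was 9.42, 9.37 and 10.25 in WT and 9.96, 9.21 and 9.87 in KO. WT replicate 3 was the highest array for both. C1qa differed from this order, with 9.37, 9.30 and 9.66 in WT and 10.04, 9.59 and 9.40 in KO, where KO replicate 1 was highest. The 3 chains had differences of 0.24, 0.17 and 0.00, with limma adjusted p-values of 0.695, 0.878 and 0.998.

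The lipid-associated and inflammatory genes had no common direction. Trem2, the lipid-sensing receptor of lipid-associated macrophages, was 6.92, 6.52 and 7.14 in WT and 7.05, 6.81 and 6.80 in KO, a difference of 0.03 (95% interval -0.37 to 0.42). All KO arrays lay inside the WT range. Gpnmb, a membrane glycoprotein of lipid-laden macrophages, was 6.52, 6.34 and 6.60 in WT and 6.89, 6.37 and 7.18 in KO, and differed by 0.32 (SE 0.20), or 0.14 without KO replicate 3. Cd9, a tetraspanin that fat cells and other cells also make, differed by -0.16, and the scavenger receptor gene Msr1 by 0.02. Cd14, the co-receptor for bacterial lipopolysaccharide, was 7.27, 7.25 and 7.26 in WT and 7.78, 7.33 and 7.57 in KO. The WT arrays were almost equal and all KO arrays were higher, by a mean of 0.30 (SE 0.12, adjusted p 0.622 by limma), and by 0.19 without KO replicate 1. KO replicate 2 lay only just above WT. Itgax, the integrin chain CD11c, and Marco, a scavenger receptor with a collagenous domain, were lower in KO by their means, at -0.24 and -0.56.

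Role groups were also summarised per array, as the average of their centred genes (each gene's mean over the 6 arrays set to 0). For resident and alternatively activated genes this level was -0.28, -0.38 and 0.29 in WT and 0.36, -0.14 and 0.16 in KO. For lipid-associated and inflammatory genes it was -0.01, -0.06 and 0.13 in WT and 0.11, -0.01 and -0.17 in KO. The groups overlapped in both. The resident level minus the lipid-associated level was -0.27, -0.33 and 0.16 in WT (mean -0.15 ± 0.26, SD, n = 3) and 0.24, -0.13 and 0.33 in KO (mean 0.15 ± 0.24). The 2 genotypes overlapped here too, since WT replicate 3 exceeded KO replicate 2. In KO replicate 3, the array lowest in lymphocyte markers, the lipid-associated level was at its lowest (-0.17). Cd9, Itgax and Marco of that group also had their lowest values there. The part of the lymphoid swing in this contrast was not tested.

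**Figure D3:**
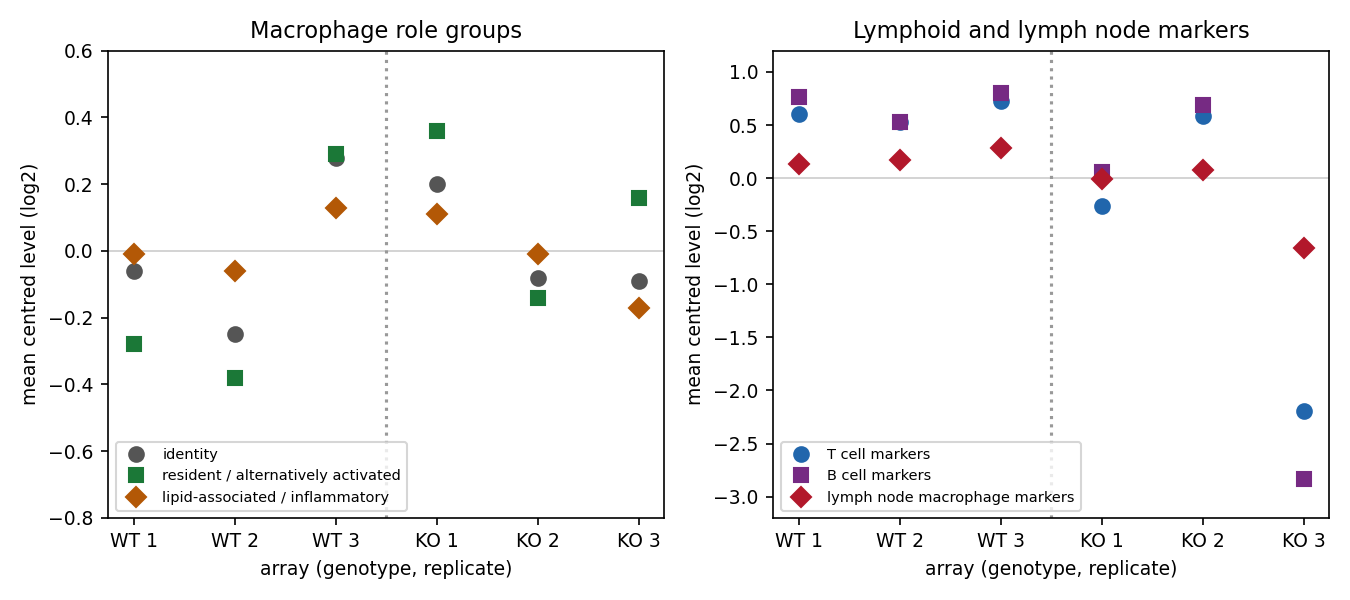
Mean centred level (vertical axes, log2) in each array (horizontal axes) for the 3 macrophage role groups (left) and for T cell, B cell and lymph node macrophage markers (right, on a wider scale). Macrophage levels stay between -0.38 and 0.36 and are high in WT replicate 3 and KO replicate 1, while T cell and B cell markers reach -2.19 and -2.83 in KO replicate 3.

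The same arrays recurred as high or low across the list. WT replicate 3 was the highest WT array for 31 of 33 genes, against 35.5% of all genes, the exceptions being Cd9 and Cd14. WT replicate 2 was the lowest WT array for 27, against 42.9%. KO replicate 1 was the highest KO array for 17, against 21.8%, and KO replicate 2 the lowest KO array for 18, against 41.9%. For 25 of the 33 genes the range within WT was larger than the difference between the genotypes, as it was for 74.7% of all genes. These counts were chosen after the values were seen, and the genes share their cells, so they are a description of 6 animals.

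**Figure D4:**
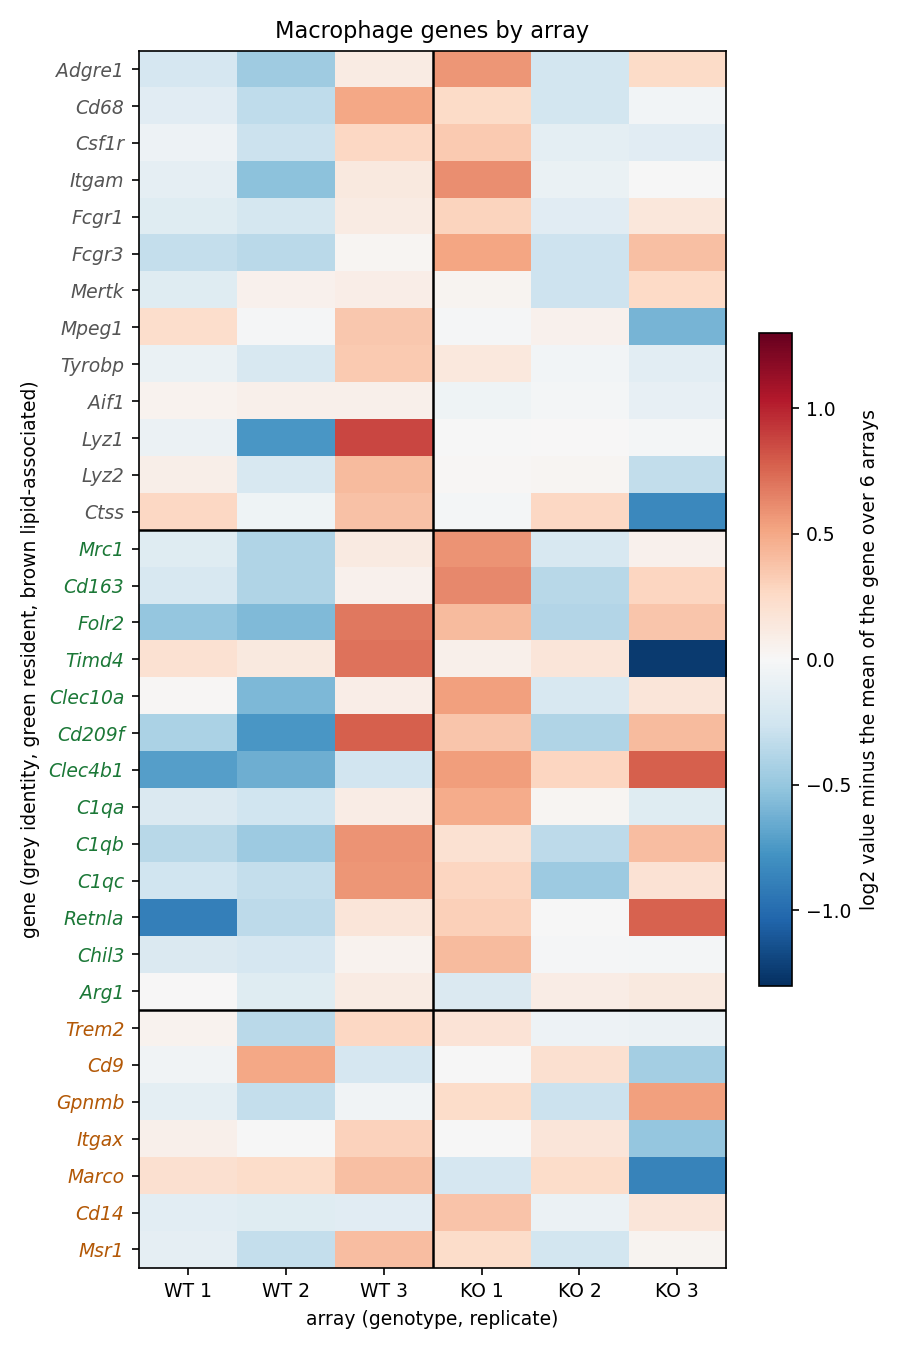
Heat map of the 33 macrophage genes (rows, in 3 role groups) in the 6 arrays (columns); colour is the log2 value minus the mean of the gene over the 6 arrays. Red fills much of the WT replicate 3 and KO replicate 1 columns, and in KO replicate 3 Timd4 (7.57), Marco (5.58), Ctss (8.53) and Mpeg1 (7.85) are blue while Clec4b1 (5.19) and Retnla (11.32) are red.

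Part of the list was low where lymphocyte markers were low. KO replicate 3, the array with the lymphocyte score of -2.50, was the lowest of all 6 for 8 genes, Mpeg1, Aif1, Lyz2, Ctss, Timd4, Cd9, Itgax and Marco, a count near the share of 20.7% over all genes. For 4 of them it lay more than 0.5 below every other array, where 3.62% of all genes did so. Timd4, a phosphatidylserine receptor of long-lived resident macrophages, was 9.01, 8.94 and 9.52 in WT and 8.88, 8.97 and 7.57 in KO. Marco was 6.66, 6.69 and 6.84 in WT and 6.23, 6.69 and 5.58 in KO. Ctss, the protease cathepsin S of antigen-presenting cells, was 9.63, 9.31 and 9.75 in WT and 9.34, 9.63 and 8.53 in KO. Mpeg1, which encodes the pore-forming protein perforin-2, was 8.69, 8.44 and 8.81 in WT and 8.44, 8.51 and 7.85 in KO. In all 4 genes KO replicate 2 lay within the WT range.

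These 4 genes were picked for their low value in KO replicate 3, so their differences had to shrink when that array was left out, and the lymphocyte score, lowest in the same array, is not independent of that choice. The values are a description. Timd4 was at -0.68 (SE 0.37) with all arrays, -0.23 without KO replicate 3 and -0.05 when the lymphocyte score entered the fit. Marco was at -0.56, -0.27 and -0.12, Ctss at -0.40, -0.08 and 0.07, and Mpeg1 at -0.38, -0.17 and -0.08, in the same order. Itgax, at -0.24 with all arrays, was at -0.04 without KO replicate 3 and 0.05 with the covariate. Their limma adjusted p-values with all arrays lay between 0.622 and 0.698.

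Most markers of macrophages in lymph node sinuses were low in the same array. Of 5 such markers measured, 4 were lowest in KO replicate 3, where 20.7% of all genes were. Among them was Siglec1, the sialoadhesin of sinus macrophages. The remaining marker, Nr1h3, was highest in KO replicate 3, at 9.54 against 8.89 to 9.27 in the other arrays. The level of this list, which includes Marco, was 0.13 to 0.28 in WT and -0.01, 0.08 and -0.66 in KO. Dendritic cell markers, which share Ccr7 with the lymphocyte score, stood at 0.07 to 0.45 in WT and -0.05, 0.15 and -0.86 in KO. Of these markers, 8 of 10 were lowest in KO replicate 3. The part of sinus macrophage and dendritic cell markers in the values of Timd4, Marco, Ctss and Mpeg1 was not tested. Mast cell markers, by contrast, were at -0.23 to 0.03 in WT and 0.21, -0.07 and 0.27 in KO, with 7 of 7 higher in KO by their means, and their part in the resident gene values was not tested. Skeletal muscle markers were at -1.75, 2.68 and 0.74 in WT and 1.72, -1.54 and -1.85 in KO. They were highest in WT replicate 2, where the resident level was lowest (-0.38), and next highest in KO replicate 1, where the resident level was highest (0.36).

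Promoters of 6 of these genes are shown because their RNA followed different courses: Clec4b1 and Retnla had the largest positive differences, C1qb and C1qc were highest in WT replicate 3, and Timd4 and Ctss were lowest in KO replicate 3. They are RefSeq sequences of build GRCm38.p6, each from 250 bases before to 50 bases after the annotated start, 5′ to 3′ on the gene's strand. They lie at chr6:123049712-123050011 (+ strand, Clec4b1), chr16:48842359-48842658 (+, Retnla), chr4:136886151-136886450 (-, C1qb), chr4:136892865-136893164 (-, C1qc), chr11:46810549-46810848 (+, Timd4) and chr3:95526536-95526835 (+, Ctss). Capitals mark GGAAGT on either strand (ACTTCC when it is read on the other strand), the core bound by ETS factors such as PU.1, the master regulator of macrophages.
Clec4b1: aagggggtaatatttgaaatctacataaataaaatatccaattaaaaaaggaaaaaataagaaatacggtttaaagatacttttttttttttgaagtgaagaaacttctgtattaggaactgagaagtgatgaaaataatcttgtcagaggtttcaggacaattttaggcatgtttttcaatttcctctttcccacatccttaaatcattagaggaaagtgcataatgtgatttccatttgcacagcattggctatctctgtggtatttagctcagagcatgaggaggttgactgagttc
Retnla: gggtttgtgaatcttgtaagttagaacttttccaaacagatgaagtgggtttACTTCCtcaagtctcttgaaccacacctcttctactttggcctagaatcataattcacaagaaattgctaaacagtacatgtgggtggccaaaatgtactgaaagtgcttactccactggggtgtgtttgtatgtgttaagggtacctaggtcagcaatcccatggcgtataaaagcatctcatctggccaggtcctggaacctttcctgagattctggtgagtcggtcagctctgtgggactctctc
C1qb: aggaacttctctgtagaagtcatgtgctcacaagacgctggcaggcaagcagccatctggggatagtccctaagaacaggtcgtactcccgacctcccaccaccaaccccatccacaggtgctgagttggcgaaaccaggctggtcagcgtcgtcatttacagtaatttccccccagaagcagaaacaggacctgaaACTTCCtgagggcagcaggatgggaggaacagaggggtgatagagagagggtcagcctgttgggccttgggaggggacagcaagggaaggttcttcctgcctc
C1qc: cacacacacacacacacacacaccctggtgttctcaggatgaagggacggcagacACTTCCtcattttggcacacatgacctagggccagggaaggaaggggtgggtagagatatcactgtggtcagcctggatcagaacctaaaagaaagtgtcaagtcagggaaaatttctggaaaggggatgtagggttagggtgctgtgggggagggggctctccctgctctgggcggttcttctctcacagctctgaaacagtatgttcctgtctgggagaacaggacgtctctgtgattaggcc
Timd4: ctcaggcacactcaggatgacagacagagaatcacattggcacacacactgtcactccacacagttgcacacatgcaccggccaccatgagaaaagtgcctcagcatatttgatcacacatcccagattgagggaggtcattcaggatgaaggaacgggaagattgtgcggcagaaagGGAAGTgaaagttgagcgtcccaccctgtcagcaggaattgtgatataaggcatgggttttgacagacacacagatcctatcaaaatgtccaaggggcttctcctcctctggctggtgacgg
Ctss: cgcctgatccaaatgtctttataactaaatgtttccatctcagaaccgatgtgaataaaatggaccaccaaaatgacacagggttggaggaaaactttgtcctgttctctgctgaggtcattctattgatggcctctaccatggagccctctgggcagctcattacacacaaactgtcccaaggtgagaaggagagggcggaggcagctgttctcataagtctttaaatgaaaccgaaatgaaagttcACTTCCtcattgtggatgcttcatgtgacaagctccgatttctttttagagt

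The core was present in 5 of the 6 windows, all but that of Clec4b1. Over the 26 listed genes with a promoter in the RefSeq table, 14 held GGAAGT on either strand (53.8%), against 26.5% of 27025 genes with a promoter there. The longer form GAGGAAGT, which contains GGAAGT, was in 4 of the 26 (15.4%) against 3.69%, namely C1qc, Ctss, Retnla and Spp1, whose RNA was not analysed here. TGACGTCA, the cyclic AMP response element that ATF and CREB factors bind, was in 0 of the 26, against 2.03% of all. A share that low gives few or no matches among 26 genes, so this count shows no lack of the element. TGANTCA, where N is any base, is a looser pattern than the AP-1 element. This pattern was in 6 (23.1%) against 8.97%, namely Cd209f, Cd68, Folr2, Gpnmb, Itgax and Trem2. A match describes the letters of this window and shows no binding.

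Other genes of macrophage biology, from lists that hold none of the 34, gave 0 calls at an adjusted p under 0.05 by limma. Among further resident genes, 12 of 17 were higher in KO by their means with a median of 0.14, 0 at an unadjusted p under 0.05 in either direction. Mgl2, the companion lectin of Clec10a, was 8.05, 7.87 and 8.50 in WT and 9.09, 8.15 and 9.14 in KO, a difference of 0.65 (SE 0.29), with KO replicate 2 inside the WT range. Cd209g, a lectin of the same family as Cd209f, differed by 0.43, and Cd209b, the sinus macrophage lectin SIGN-R1, by -0.66, from 9.09, 8.97 and 10.06 in WT to 9.15, 9.20 and 7.79 in KO. Cd209b thus had its lowest value in KO replicate 3, unlike Cd209f and Cd209g.

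Further lipid-associated genes had a median of 0.07, with 13 of 19 higher and 1 at an unadjusted p under 0.05 in each direction. These were Plin2, a lipid droplet protein of fat cells and macrophages, at 0.37 (SE 0.12), with all KO arrays above all WT arrays, and Cd63, a lysosomal tetraspanin, at -0.32 (SE 0.13). Inflammatory activation genes had a median of 0.02, with 10 of 19 higher and likewise 1 in each direction. Ptgs2, the inducible cyclooxygenase, was 6.23, 5.89 and 6.33 in WT and 6.86, 6.51 and 6.62 in KO, a difference of 0.52 (SE 0.15). The costimulatory gene Cd86 was at -0.49 and the cytokine gene Tnf at -0.68, both lowest in KO replicate 3, and Tnf was at -0.26 without that array.

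Factors that recruit or maintain macrophages had a median of 0.00, with 9 of 17 higher. The ligands Csf1 (0.15) and Il34 (-0.14) and the chemokine Ccl2 (0.00) were singled out as textbook members after their values were seen. Cx3cr1, the fractalkine receptor, was the 1 gene of this list at an unadjusted p under 0.05, at -0.29 (SE 0.11), and Il4ra, the receptor chain for interleukin 4 and interleukin 13, was at -0.58 (SE 0.27) and -0.25 without KO replicate 3. Transcription factors had a median of 0.08, with 7 of 13 higher. Klf4, a factor of monocyte differentiation and alternative activation that vessel cells also make, was at 0.39 (SE 0.13). Irf8, a factor of monocytes, dendritic cells and B cells, was at -0.90 (SE 0.35) and -0.47 without KO replicate 3. Its values were 9.49, 9.54 and 9.50 in WT and 8.81, 9.28 and 7.74 in KO, so every KO array lay below WT. Receptor signalling partners, many of which all leukocytes express, had a median of -0.53, with 14 of 18 lower and 15 of 18 lowest in KO replicate 3. Hcst was the 1 gene of this list at an unadjusted p under 0.05, at -0.60 (SE 0.23) and -0.34 without KO replicate 3. Laptm5, a lysosomal protein of leukocytes in the same list, was 11.84, 11.67 and 11.96 in WT and 11.38, 11.65 and 10.46 in KO. All genes of these 6 lists had limma adjusted p-values of 0.622 or above.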

How the data were processed

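RNA from inguinal white adipose tissue of 6 mice was measured on arrays. The deposited table holds log2 values of 34760 probe sets in each array, and RMA, affy and limma are named in the submitters' processing notes, with versions, options and genome build not given in the sources used here. RMA is a method of background correction, quantile normalization and probe summary. Of the probe sets, 21640 had 1 gene symbol in the platform annotation, 1321 had several and 11799 had none listed. The last 2 kinds were left out, 2 of them naming Itgam among several genes. Symbols of all 33 genes matched RefSeq by Entrez identifier.

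KO was compared with WT by limma 3.58.1 in R 4.3.3 (lmFit, eBayes, two-sided), on the values as deposited, with Benjamini-Hochberg adjustment over 19937 genes. The script was tested on simulated data. SE and 95% intervals are limma's moderated ones. Other genes were named as up to 4 per list by smallest p. Genes singled out otherwise are said to be. The members, role groups and lists were chosen with earlier results of these data known. With 3 arrays per group, an exact permutation test cannot go below 0.1, and the number of arrays limits the precision. The main fit did not pair animals by replicate number. Same-numbered deviations correlated at -0.14, -0.08 and -0.04 over genes, and differently numbered ones at 0 to 0.09. With 3 arrays per group such correlations cannot exclude pairing. Alternatives covered probe set choice, filtering, normalization, the variance prior, leaving out arrays, a replicate block and the lymphocyte score as a covariate.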

Additional observations from a re-analysis of the deposited data

How the results depend on the processing

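In every alternative 0 macrophage genes passed an adjusted p of 0.05, the smallest being 0.174, and Clec4b1 was at an unadjusted p under 0.05 in each one that tested it. Of the 33 genes, 19 kept the sign of their difference throughout and 14 did not. Over all genes, 0 higher and 0 lower were called, 1 lower with the mean of all probe sets, 2 lower over all probe sets, and 0 higher and 0 lower with any 1 array left out. Atf7 probe set 10433032 was among the 2 lower over all probe sets. The 3 macrophage genes higher at an unadjusted p under 0.05 became 1 over all probe sets, 1 among genes above the median level and 1 once the lymphocyte score was a covariate. Leaving out 1 array at a time gave 1 to 7, and the 0 lower ones from 0 to 4. The share of all genes under that p was not counted in the alternatives, so these counts have no background beside them. With the replicate block there were 4 higher and 0 lower, and the block changed no adjusted call. With 1 array left out the median log2 difference ranged from -0.02 to 0.29 over all 33 genes, from -0.11 to 0.19 for identity genes, from 0.11 to 0.47 for resident genes and from -0.13 to 0.17 for lipid-associated ones. With that covariate the sign turned for Mertk (-0.18), Tyrobp (0.06), Lyz1 (0.03), Ctss (0.07), C1qb (-0.06), C1qc (-0.17), Arg1 (-0.01), Cd9 (0.08), Itgax (0.05) and Msr1 (-0.02), and with quantile normalization for Mertk (0.00) and C1qc (-0.03). With 1 array left out it turned within the ranges of Arg1 (-0.04 to 0.13), C1qb (-0.02 to 0.51), C1qc (-0.15 to 0.29), Cd209f (-0.05 to 0.71), Cd68 (-0.18 to 0.23), Cd9 (-0.31 to 0.05), Csf1r (-0.11 to 0.19), Lyz1 (-0.41 to 0.41), Mertk (-0.11 to 0.16), Msr1 (-0.13 to 0.22), Trem2 (-0.14 to 0.17) and Tyrobp (-0.14 to 0.14). The cause was not tested, except that the filter on dim genes leaves 26 of the 33 genes and so removes Clec4b1. Quantile normalization upstream hides shifts shared by most genes.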
